A study of Mus musculus with 12 samples.

Results

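The transcript levels of Trp53, which encodes the transcription factor p53, and of 9 genes of its pathway (Mdm2, Mdm4, Cdkn1a, Ccng1, Perp, Bax, Bbc3, Gadd45a and Zmat3) were followed in the axonal and the somatodendritic compartment of mouse motoneurons depleted of Smn. The 10 genes were chosen by name, and each had 1 row among the 39174 genes of every table and passed the filter for testing, an FPKM averaging 1 or more across libraries. Primary motoneuron cultures of the CD-1 background were grown in microfluidic chambers, which let axons grow into a compartment apart from the cell bodies and dendrites, and total RNA was profiled from 6 axonal and 6 somatodendritic libraries. All 12 libraries came from Smn knockdown cultures, and no library of unperturbed cells was analysed here, so that the values compare 2 compartments of knockdown cultures and do not measure the effect of Smn loss. The labels state neither how Smn was knocked down nor whether the replicates were separate cultures, and p-values therefore reflect only how far these libraries differ, which may be technical variation.

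p53 is held at low levels by Mdm2, a ubiquitin ligase that marks it for degradation, and by Mdm4, a relative of Mdm2 that masks its activation domain. When it is released by DNA damage or other stress, p53 binds response elements, each made of a pair of 10-base motifs, and raises transcription of genes that stop the cell cycle, repair DNA, start mitochondrial apoptosis or, as Mdm2 itself does, shut the response down. In mouse models of spinal muscular atrophy, p53 is activated in vulnerable motoneurons and contributes to their death, and Smn loss disturbs the splicing of Mdm2 and Mdm4. The tables used here give 1 value per gene and hold no information on splicing.

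The libraries were shallow in the fragments that make up the library size in FPKM. The FPKM step of 1 read in genes with 1 transcript implied 218000 to 729000 such fragments per axonal library. Somatodendritic libraries held between 256000 and 362000, except replicate 4, with 55000. Fragments that were sequenced but left out of that library size are not included. Motoneuron markers (7 genes found) were mixed. Chat and Mnx1, which define motoneurons, were listed at 0 in all 12 libraries. Isl1 was above 0 in 1 axonal and 3 somatodendritic libraries, and Prph in 2 of each. Slc5a7 was above 0 in 2 axonal libraries and Isl2 in 1, and neither in a somatodendritic one. Nefh was above 0 in all 12, lowest in axonal replicate 1 (6.95 scaled FPKM) and highest in somatodendritic replicate 6 (25.7). Neuronal markers were abundant (summed scaled FPKM of 6 genes 1090 to 1479 in the axonal group and 1200 to 1758 in the somatodendritic group). FPKM divides the fragments of a gene by its transcript length and by the size of its library, and "scaled FPKM" is FPKM after libraries were brought to a common level. The deposited confidence bounds give, for each value, the number of reads whose counting error alone would make bounds as wide, called effective reads here. For Perp and Bax these numbers were whole to within 0.006 and read as read counts.

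Most of the 120 values of the 10 genes were worth few effective reads. Of these values 18 were listed at 0, 32 of those above 0 were worth less than 1 effective read (by more than 0.02), and 29 were worth at least 5. The deposited lower bound was above 0 in 34. Cdkn1a, with 1.99 to 138 effective reads, reached 5 in 11 of 12 libraries, Ccng1 in 8, Mdm4 in 3, Perp in 2, Trp53, Mdm2, Bax, Bbc3 and Zmat3 in 1 each, and Gadd45a in none. Cdkn1a and Ccng1 are thus the genes of the set for which levels can be read in most libraries. Axonal replicate 1 held all 10 genes above 0, and somatodendritic replicate 4 held 4.

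**Figure D1:**
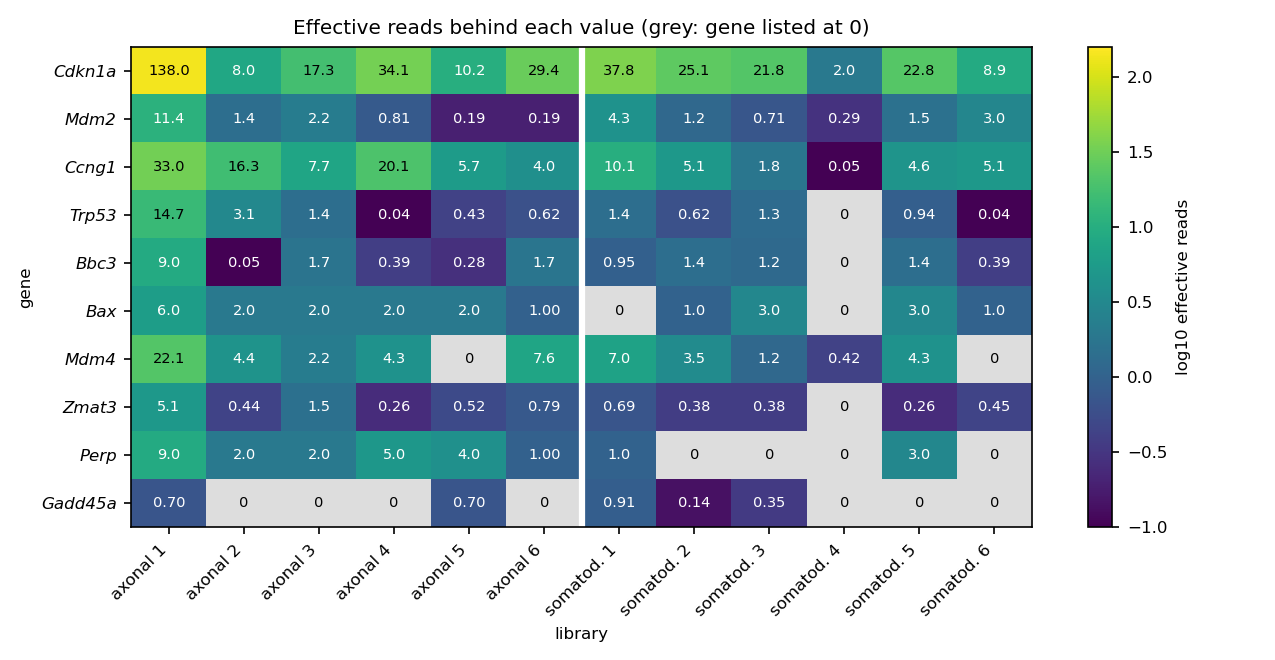
Effective reads behind the value of each gene (rows, from the highest to the lowest mean level) in each library (columns, axonal left and somatodendritic right), coloured on a log10 scale, with grey cells for genes listed at 0. Cdkn1a reached 138 effective reads in axonal replicate 1, and 32 of the 102 values above 0 were worth less than 1 by more than 0.02.

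Because FPKM is per length, levels can be ordered between genes, loosely where values are worth few effective reads. For Mdm2 the deposited lower bound was 0 in 10 of the 12 libraries. Averaged over the 12 libraries, the order in scaled FPKM was Cdkn1a (57.6), Mdm2 (20.6), Ccng1 (16.9), Trp53 (10.2), Bbc3 (9.31), Bax (7.01), Mdm4 (6.23), Zmat3 (6.22), Perp (3.51) and Gadd45a (2.97). Cdkn1a exceeded Mdm2 in 11 of 12 libraries, by a mean of 1.56 ± 0.94 on the log2(scaled FPKM + 1) scale (SD over libraries), and it made up 21.8 to 51.2% of the summed scaled FPKM of the 10 genes in axonal and 32.5 to 51.0% in somatodendritic libraries. Between every other pair of neighbours in this order the mean log2 difference was smaller than its SD over the 12 libraries. That SD describes the spread of libraries and does not test an order. The higher gene exceeded the lower in 10 of 12 libraries for Ccng1 and Trp53, and in 6 to 8 for the remaining pairs. Mdm2 exceeded Ccng1 in 2 of 6 axonal and 6 of 6 somatodendritic libraries, a description whose difference was not tested.

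**Figure D2:**
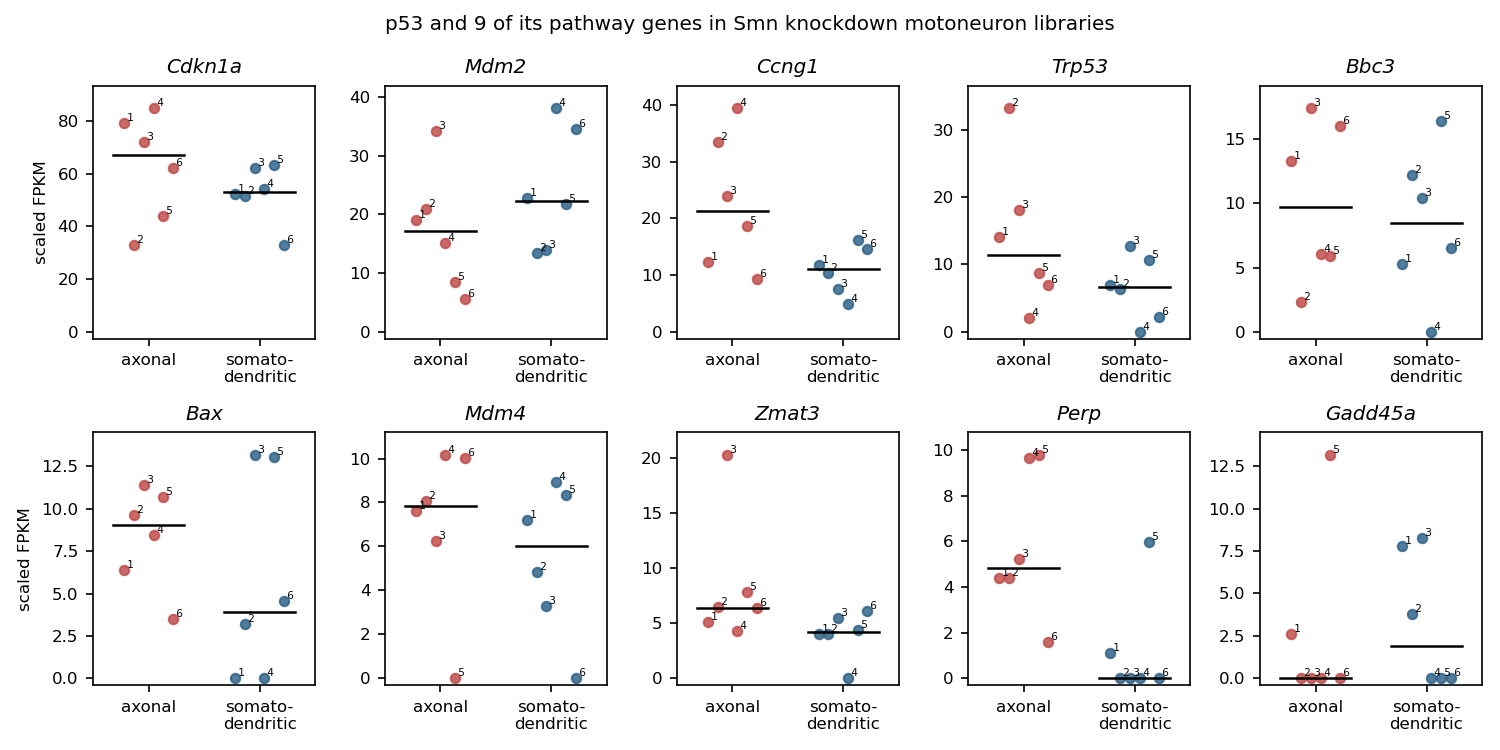
Scaled FPKM of each gene (one panel per gene, linear axis) in the 6 axonal and 6 somatodendritic libraries. Points are libraries with their replicate number, and black lines are group medians. The groups overlap in all 10 panels, and Perp is at 0 in 4 somatodendritic libraries and in no axonal one.

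None of the 10 genes passed the limma test between compartments (Benjamini-Hochberg adjusted p over 13914 genes, from 0.387 for Perp to 0.906 for Mdm4), in a comparison that called 1 gene in all, 0.00719% of those tested. At an unadjusted limma p below 0.05, 2 of the 10 were higher in axonal libraries (Perp and Ccng1) and 0 were lower, where 6.3% of all genes tested were higher and 2.61% lower, 8.9% in all. The exact two-sided permutation test over the 924 arrangements of the libraries placed 3 of the 10 below 0.05 (Perp, Ccng1 and Zmat3), against 8.75% of all genes, and called 0 genes after adjustment. The groups overlapped for all 10 genes, and they did not overlap for 0.712% of all genes. The log2 fold change, axonal minus somatodendritic, was above 0 for 8 of the 10 and for 60.5% of all genes tested, and its median was 0.68 over the 10 and 0.18 over all.

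Trp53 (ENSMUSG00000059552, chromosome 11, 69580359 to 69591873, plus strand, GRCm38) is the gene of p53 itself. Its axonal values, from replicate 1 to 6, were 14.1, 33.2, 18.1, 2.08, 8.76 and 6.89 scaled FPKM. Its somatodendritic values, in the same order, were 6.89, 6.34, 12.7, 0, 10.7 and 2.22. Axonal replicates 1 to 3 lay above every somatodendritic library, and the other axonal libraries lay among them. The log2 fold change was 1.05 ± 0.69 (SE, n = 6 per group, 95% interval -0.41 to 2.51, limma adjusted p = 0.671), and it was 0.52 without somatodendritic replicate 4. Axonal replicate 1 was worth 14.7 effective reads and the other libraries at most 3.09, so that the high value of axonal replicate 2 had deposited bounds, on the scaled axis, of 0 and 70.9.

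The protein-coding genes whose profile over the 12 libraries lay closest to that of Trp53, among 5167 of like mean level, were Elk4, Fam160a2 and Prr5. Their root-mean-square distance from Trp53 in centred log2 values was 0.51, 0.58 and 0.59, against a median of 1.46 over those genes. Elk4, an ETS-family transcription factor gene, spanned 9.59 to 68.0 scaled FPKM in the axonal group and 0 to 24.8 in the somatodendritic group. All 3, like Trp53, were listed at 0 in somatodendritic replicate 4, the library of fewest fragments.

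The inhibitors of p53 did not pass the test. Mdm2 (ENSMUSG00000020184, chromosome 10, 117688888 to 117710758, minus strand) averaged 17.2 ± 10.2 scaled FPKM in the axonal group, against 24.1 ± 10.3 in the somatodendritic group (SD, n = 6 each). The values ran from 5.51 through a median of 17.1 to 34.2 in axonal libraries, and from 13.4 through 22.3 to 38.1 in somatodendritic ones. Axonal replicates 5 and 6 lay below every somatodendritic library, and the others lay within their range (log2 fold change -0.57 ± 0.42 SE, 95% interval -1.46 to 0.33, limma adjusted p = 0.706). The fold change was -0.32 without axonal replicate 6. The highest value, 38.1 in somatodendritic replicate 4, was worth 0.29 effective reads.

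Mdm4 (ENSMUSG00000054387, chromosome 1, 132989845 to 133025366, minus strand) encodes the inhibitor that masks the activation domain of p53. Its axonal values, from replicate 1 to 6, were 7.62, 8.05, 6.26, 10.2, 0 and 10.0 scaled FPKM. Its somatodendritic values, in the same order, were 7.22, 4.83, 3.28, 8.95, 8.32 and 0. Each group had 1 library at 0 (axonal replicate 5, somatodendritic replicate 6), and the remaining values of both groups lay together (log2 fold change 0.31 ± 0.69 SE, 95% interval -1.16 to 1.79, limma adjusted p = 0.906). The direction was that of whichever library at 0 was kept, since the fold change was 0.85 without axonal replicate 5 and -0.16 without somatodendritic replicate 6. Mdm2 exceeded Mdm4 in 5 of 6 axonal and 6 of 6 somatodendritic libraries.

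Cdkn1a and Ccng1 hold the cell cycle arm. Cdkn1a (ENSMUSG00000023067, chromosome 17, 29090979 to 29100722, plus strand) encodes the cyclin-dependent kinase inhibitor p21, the classic target through which p53 arrests dividing cells, and Ccng1 (ENSMUSG00000020326, chromosome 11, 40748552 to 40755311, minus strand) encodes cyclin G1, which acts on Mdm2 through the phosphatase PP2A. Among the 12 start-site windows that RefSeq gives for 8 of the 10 genes (none for Perp and Zmat3; 300 bases each, 250 before and 50 after an annotated start, GRCm38.p6), those 2 genes are also the ones whose window holds a whole p53 element, so their sequences are shown. The search used the p53 10-base consensus, which reads alike on both strands, as a pair of copies without a spacer and with at most 1 mismatch. Such a pair was found in 29 of 32851 RefSeq windows, 0.0883%. Capitals mark the pair. For Cdkn1a it lies in the upstream of its windows, 51 bases before the start of that window (chr17:29090729-29091028, plus strand). In the Ccng1 window it lies 195 bases before the start (chr11:40755237-40755536, minus strand).
Cdkn1a: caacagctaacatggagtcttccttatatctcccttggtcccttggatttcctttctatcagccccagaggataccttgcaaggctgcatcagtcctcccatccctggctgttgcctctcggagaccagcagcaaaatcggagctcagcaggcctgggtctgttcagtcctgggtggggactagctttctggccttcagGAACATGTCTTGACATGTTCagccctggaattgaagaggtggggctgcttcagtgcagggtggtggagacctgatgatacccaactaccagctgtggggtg
Ccng1: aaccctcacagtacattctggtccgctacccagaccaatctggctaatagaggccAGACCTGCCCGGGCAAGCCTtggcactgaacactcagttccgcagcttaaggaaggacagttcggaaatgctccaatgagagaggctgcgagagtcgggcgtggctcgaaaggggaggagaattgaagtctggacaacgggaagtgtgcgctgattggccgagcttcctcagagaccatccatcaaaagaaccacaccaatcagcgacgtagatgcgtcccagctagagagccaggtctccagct
The other 10 windows held at best a pair with 3 to 6 mismatches. At least 1 exact copy of the 10-base motif was present in 6 of the 12 windows and in 8.36% of all windows. A match describes these letters and not binding, and sites outside the windows were not searched.

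Cdkn1a had the highest mean level of the set, with values of both compartments in 1 range. Its values ran from 32.9 through a median of 67.2 to 84.7 scaled FPKM in axonal libraries, and from 33.0 through 53.1 to 63.4 in somatodendritic ones. Axonal replicates 1, 3 and 4 lay above every somatodendritic library, axonal replicate 2 lay below all of them, and replicates 5 and 6 lay among them. The mean was 62.5 ± 20.4 in the axonal group, against 52.7 ± 10.9 in the somatodendritic group (SD, n = 6 each), with a log2 fold change of 0.20 ± 0.27 (SE, limma adjusted p = 0.838). The 95% interval, -0.37 to 0.77, bounds the difference more tightly than for any other of the 10 genes. With FPKM as deposited the fold change was -0.052, so no direction is given.

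Ccng1 had the larger values in axonal libraries, with an average of 22.9 ± 11.8 scaled FPKM, against 10.9 ± 4.22 in the somatodendritic group (SD, n = 6 each). Values ran from 9.35 through a median of 21.3 to 39.4 in axonal libraries, and from 4.90 through 11.1 to 16.1 in somatodendritic ones. Axonal replicates 2 to 5 lay above every somatodendritic library, and replicates 1 and 6 lay within their range. The log2 fold change was 0.93 ± 0.41 (SE, 95% interval 0.07 to 1.79, unadjusted limma p = 0.0363, exact permutation p = 0.0433, limma adjusted p = 0.526), which did not pass the test. It was 0.68 with FPKM as deposited, 0.72 in replicates 1 and 2 alone and 0.98 in replicates 3 to 6. Its unadjusted limma p was below 0.05 in 12 of 25 alternatives, and it was above it, for example, with FPKM as deposited (0.114). In the axonal libraries Ccng1 was worth 3.98 to 33.0 effective reads, against 0.05 to 10.1 in the somatodendritic ones.

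Gadd45a and Zmat3 were worth few effective reads. Gadd45a (ENSMUSG00000036390, chromosome 6, 67035096 to 67037457, minus strand) encodes a stress protein that takes part in DNA repair and growth arrest. Listed values were 2.61 and 13.2 scaled FPKM in replicates 1 and 5 of the axonal group and 7.80, 3.77 and 8.29 in somatodendritic replicates 1 to 3, each worth less than 1 effective read, and the other 7 libraries were at 0. The log2 fold change was -0.49 ± 0.83 (SE, limma adjusted p = 0.877), with a 95% interval of -2.25 to 1.27. A difference was not detectable with values worth so few effective reads. E230016M11Rik, a non-coding gene on the opposite strand, overlaps Gadd45a by 859 bases and was above 0 in 6 libraries. Whether reads were counted by strand is not stated.

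Zmat3 (ENSMUSG00000027663, chromosome 3, 32334796 to 32365678, minus strand) encodes an RNA-binding zinc finger protein and is a transcriptional target of p53. Its axonal values, from replicate 1 to 6, were 5.11, 6.46, 20.3, 4.32, 7.89 and 6.36 scaled FPKM. Its somatodendritic values, in the same order, were 4.06, 4.02, 5.47, 0, 4.44 and 6.17. Axonal replicate 3 and somatodendritic replicate 4 stood apart, and the other 10 values lay between 4.02 and 7.89, with axonal replicates 2, 3, 5 and 6 above every somatodendritic library. The log2 fold change was 0.95 ± 0.54 (SE, 95% interval -0.20 to 2.11, limma adjusted p = 0.615, exact permutation p = 0.0411). It was 0.50 without somatodendritic replicate 4. Axonal replicate 1 was worth 5.06 effective reads and the other libraries at most 1.51. The estimate from the step of 1 read and all exons was higher, at 63.1 in axonal replicate 1.

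The apoptotic arm is represented by Perp, Bax and Bbc3. Perp (ENSMUSG00000019851, chromosome 10, 18845071 to 18857073, plus strand) encodes a tetraspan membrane protein that takes part in p53-dependent apoptosis and in desmosomes of epithelia. Its axonal values, from replicate 1 to 6, were 4.38, 4.41, 5.22, 9.68, 9.80 and 1.60 scaled FPKM. Its somatodendritic values, in the same order, were 1.09, 0, 0, 0, 5.97 and 0. All 6 axonal libraries lay above the somatodendritic median, while somatodendritic replicate 5 lay above axonal replicates 1, 2, 3 and 6, so that the groups overlapped. The log2 fold change was 1.98 ± 0.59 (SE, 95% interval 0.73 to 3.22, unadjusted limma p = 0.00401, exact permutation p = 0.0152, limma adjusted p = 0.387). It was the gene of smallest p in the set and did not pass the test.

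The reads behind Perp were 9, 2, 2, 5, 4 and 1 in axonal replicates 1 to 6, 23 in all, against 1 and 3 in somatodendritic replicates 1 and 5, 4 in all. The axonal libraries held 2240000 implied fragments in sum and the somatodendritic libraries 1490000. Without axonal replicate 1, the deepest library, there were 14 Perp reads in 1510000 axonal fragments. The fold change was 1.94 in replicates 1 and 2 alone and 1.96 in replicates 3 to 6, and it ran from 1.82 to 2.41 with each library left out.

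Bax (ENSMUSG00000003873, chromosome 7, 45461695 to 45466898, minus strand) encodes the pore-forming protein that permeabilises the outer mitochondrial membrane. Its axonal values, from replicate 1 to 6, were 6.39, 9.65, 11.4, 8.47, 10.7 and 3.51 scaled FPKM. Its somatodendritic values, in the same order, were 0, 3.23, 13.2, 0, 13.1 and 4.54. The somatodendritic libraries held the highest and the lowest values, and all axonal values lay between them (log2 fold change 1.12 ± 0.69 SE, 95% interval -0.34 to 2.58, limma adjusted p = 0.645). Each without a somatodendritic library at 0, the fold change was 0.70 (replicate 1 left out) and 0.68 (replicate 4 left out). Bax reads numbered 15 in axonal and 8 in somatodendritic libraries.

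Bbc3 (ENSMUSG00000002083, chromosome 7, 16309616 to 16318205, plus strand) encodes PUMA, which frees Bax by binding its antagonists. Its axonal values, from replicate 1 to 6, were 13.3, 2.31, 17.4, 6.08, 5.89 and 16.04 scaled FPKM. Its somatodendritic values, in the same order, were 5.24, 12.2, 10.4, 0, 16.4 and 6.52. High and low libraries were found in both groups (log2 fold change 0.43 ± 0.66 SE, 95% interval -0.98 to 1.84, limma adjusted p = 0.863). The sign rested on somatodendritic replicate 4, since the fold change was -0.17 without it.

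**Figure D3:**
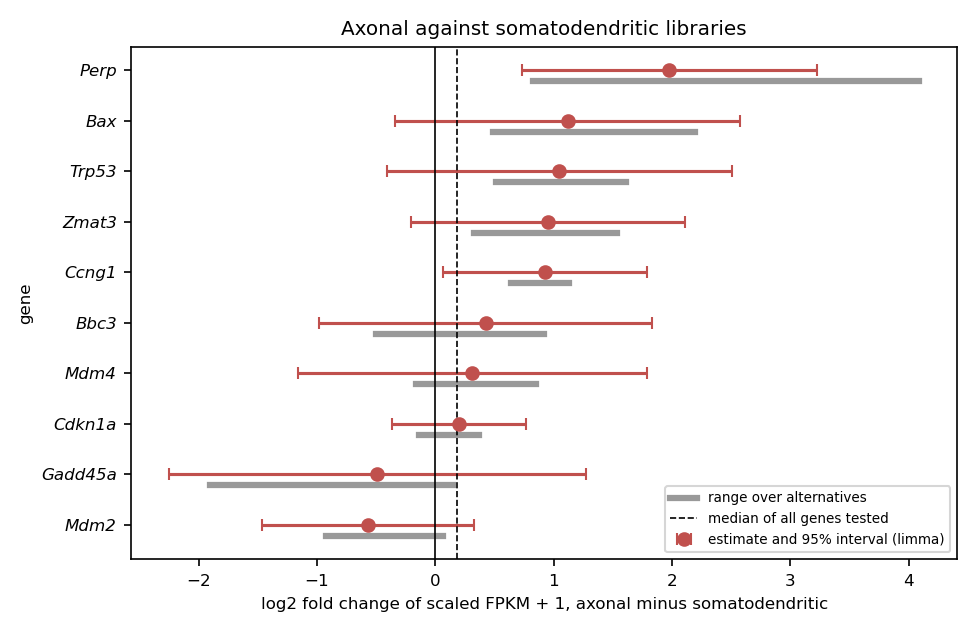
Log2 fold change of each gene, axonal minus somatodendritic, on the log2(scaled FPKM + 1) scale. Red points and bars are the limma estimate with its 95% interval, grey bars run from the lowest to the highest estimate over the alternative settings, and the dashed line is the median of all genes tested (0.18). The intervals of Perp and Ccng1 lie above 0 and the other 8 include it, before adjustment for the number of genes.

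Of 91 further genes of the pathway in 5 lists, 74 were tested and 0 were called. At an unadjusted limma p below 0.05, 5 (6.76%) were higher and 1 (1.35%) lower in axonal libraries, near the shares of all genes (6.3 and 2.61%). Of 13 tested cell death targets of p53, 3 were higher at that level and 0 lower, with a median log2 fold change of 0.70 against 0.18 over all genes. Eda2r, a receptor of the tumour necrosis factor family, spanned 0 to 8.82 scaled FPKM in the axonal group and 0 to 0.80 in the somatodendritic group (log2 fold change 1.59, limma adjusted p = 0.432). Pdcd4, which encodes an inhibitor of translation initiation, spanned 9.48 to 18.8 in the axonal group and 0 to 14.6 in the somatodendritic group (log2 fold change 1.36, limma adjusted p = 0.496). Tnfrsf10b, a death receptor gene, was the third (limma adjusted p = 0.55).

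Of 14 tested Bcl-2 family and caspase genes that act with Bax and Bbc3, 2 were higher at an unadjusted p below 0.05 and 0 lower, with a median log2 fold change of 0.25. Bcl2l2, which encodes the survival protein Bcl-w, spanned 3.23 to 16.8 scaled FPKM in the axonal group and 0 to 8.88 in the somatodendritic group (log2 fold change 1.49, limma adjusted p = 0.487). Hrk, a BH3-only death gene of neurons, spanned 0.87 to 7.97 in the axonal group and 0 to 3.51 in the somatodendritic group (log2 fold change 1.21, limma adjusted p = 0.554). Both a survival and a death gene were thus among the smallest p of this list.

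Of 15 tested metabolic and feedback targets, 0 were higher and 1 lower at that level, with a median log2 fold change of 0.53. The lower one, Cyfip2, a component of the WAVE actin regulatory complex, averaged 46.5 ± 18.8 scaled FPKM in the axonal group, against 69.0 ± 15.1 in the somatodendritic group (SD, n = 6 each; log2 fold change -0.64, limma adjusted p = 0.540). Ephx1, which encodes an epoxide hydrolase, spanned 5.71 to 82.5 in the axonal group and 0 to 18.6 in the somatodendritic group (limma adjusted p = 0.604). None of 13 tested cell cycle and DNA repair targets (median log2 fold change 0.30) and none of 19 tested p53 relatives and regulators (median 0.37) had an unadjusted limma p below 0.05. Among the cell cycle and repair targets, Gadd45g, a relative of Gadd45a, was above 0 in 3 axonal and 0 somatodendritic libraries (limma adjusted p = 0.590). Ddb2, a DNA damage recognition gene, reached 15.5 scaled FPKM in the axonal group and 7.42 in the somatodendritic group, where it was above 0 in 1 library (limma adjusted p = 0.604). Among the regulators, the DNA damage kinase gene Atr spanned 1.49 to 3.19 scaled FPKM in the axonal group and 0 to 1.46 in the somatodendritic group, and the acetyltransferase gene Kat5 spanned 9.88 to 29.0 in axonal and 3.80 to 14.5 in somatodendritic samples (limma adjusted p = 0.580 for Atr and 0.592 for Kat5).

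**Figure D4:**
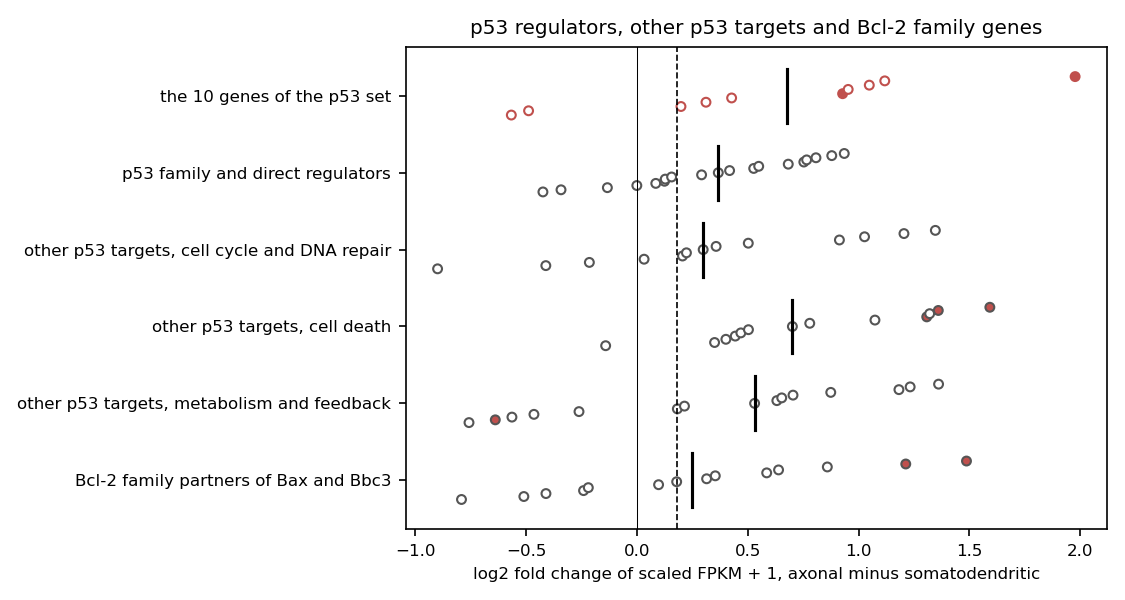
Log2 fold changes, axonal minus somatodendritic, of the tested genes of the p53 set (red outlines) and of 5 further lists (grey outlines). Each circle is a gene, filled circles have an unadjusted limma p below 0.05, short bars are list medians, and the dashed line is the median of all genes tested (0.18). List medians lie between 0.25 and 0.70, with genes on both sides of 0 in each list.

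Markers of other cell types also varied between libraries, and in bulk RNA fewer cells of a type and less RNA per cell cannot be told apart. Of 6 astrocyte and radial glia markers, 1 (Vim) had a log2 fold change above 0, with an unadjusted limma p below 0.05, and the other 5 had fold changes from -1.07 to -0.049 (list median -0.52), none below 0.05. Vim, an intermediate filament gene of glia and mesenchymal cells, averaged 251.9 ± 152.7 scaled FPKM in the axonal group, against 80.6 ± 35.7 in the somatodendritic group (SD, with 6 libraries each; limma adjusted p = 0.384), with axonal replicates 2 to 5 above every somatodendritic library, the replicates in which Ccng1 was above as well. The summed level of the 6 markers ran from 131.7 to 757.9 in the axonal group and from 277.8 to 313.2 in somatodendritic libraries. Of 5 markers of dividing cells 4 were tested, and only 2 of the 4 had a log2 fold change above 0. Of these, Mki67 was higher at an unadjusted limma p below 0.05 (log2 fold change 1.42, limma adjusted p = 0.496). Summed levels of the 5 ran from 9.39 through a median of 28.0 to 166.1 (axonal) and from 6.81 through 44.9 to 55.2 (somatodendritic). Those of 6 fibroblast markers, with Dcn at 0 throughout, ran from 5.11 to 8.83 (axonal) and from 0.95 to 12.1 (somatodendritic). Those of 4 erythroid markers ran from 4.21 to 49.0 in axonal libraries and were 0 in all somatodendritic ones, and both tested, the globin genes Hbb-y and Hba-a1, were higher at that level (limma adjusted p = 0.0691 and 0.439). Of 6 neuronal markers, 5 had a log2 fold change below 0, and Tubb3 was lower at that level (-0.56, limma adjusted p = 0.387). The part of these cells in the values of Perp and Ccng1 was not tested. Epithelial markers (6 genes) summed to 0 to 4.78 in axonal libraries, above 0 in replicates 1 and 2, and to 0 in somatodendritic ones. The highest sum was in axonal replicate 2, where Perp stood at 4.41, and the part of epithelial cells was not tested either. Endothelial markers summed to 0.93 to 22.4 in the axonal group and 0 to 2.66 in the somatodendritic group, microglial markers to 0.29 to 50.1 (axonal) and 2.81 to 22.2 (somatodendritic), and Schwann cell and oligodendrocyte markers to 4.92 to 35.1 (axonal) and 5.07 to 34.6 (somatodendritic).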

How the data were processed

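Gene tables of 12 libraries were used, grouped and numbered by sample title. Each holds one FPKM value per gene with a lower and an upper bound, which the authors deposited in Cufflinks' gene format, per the file headers. The submitters' processing notes name Cufflinks 2.2.1, FastQC 0.10.1 and GRCm38. Neither the aligner, the annotation release nor strandedness is stated. Because FPKM is a share of a library, RNA that takes up much of one library lowers FPKM for its other genes.

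Scaling factors were medians of ratios across 5607 genes detected in every library. limma 3.58.1 (R 4.3.3; mean-variance trend, robust moderation, two-sided, no covariate besides compartment) was run on log2(scaled FPKM + 1) for 13914 genes whose mean FPKM reached 1, including all 10 members, with Benjamini-Hochberg adjustment at 0.05. This scale understates fold changes of low genes. Exact permutation tests used Python 3.11.15 and numpy 2.4.6, and figures matplotlib 3.10.9. The limma code was tested on data simulated with known fold changes, with a spread that was set and not fitted to these libraries. It called 0% of 2-fold, 10.2% of 4-fold, 28% of 8-fold and 57.1% of 16-fold changes, and 3 unchanged genes. A gene that did not pass the test may therefore still differ between compartments.

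Effective reads equal the square of 2 × FPKM / (upper bound − FPKM). For protein-coding genes having a single GENCODE M21 transcript longer than 1000 bases, 77.4 to 85.5% of low values per library came within 0.02 of a whole number, which gave the step of 1 read and the implied fragments. A planned estimate from that step and all exons runs higher for genes of several transcripts and is quoted only as an example for Mdm2, Bax and Zmat3. For most such genes neither number is a read count. Deposited FPKM gives no read count for most genes, so count models were not used. Whole read numbers, as for Perp and Bax, cover counting error only.

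Members, lists, tests and alternatives were chosen with earlier results of these data known. Named genes are all 10 members, the called genes or else the 2 of smallest p in each of 5 pathway lists, the 3 most like Trp53, and overlapping genes. Tnfrsf10b and the markers were chosen after their values were seen. Symbols were matched to the tables first and gene IDs second. Alternatives covered scaling, pseudocount (0.1 and 5), filtering, a block for replicate number, array weights, moderation, subsets of replicates, exact permutation and omission of each library. Promoter sequences are RefSeq's.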

Additional observations from a re-analysis of the deposited data

Results flagged for a closer look

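Among the 20 groups of values (10 genes in 2 compartments), 6 had a library far from the others on the log2(scaled FPKM + 1) scale by Dixon's criterion. That criterion is made for normally distributed values, which values listed at 0 in shallow libraries are not, so the number of such groups is a description. In 4 of them the library was listed at 0. Mdm4 was at 0 in axonal replicate 5, with the other axonal libraries between 6.26 and 10.2 scaled FPKM, and at 0 in somatodendritic replicate 6, with the others between 3.28 and 8.95. Bbc3 and Zmat3 were at 0 in somatodendritic replicate 4, with the other somatodendritic libraries between 5.24 and 16.4 and between 4.02 and 6.17. Cdkn1a stood at 33.0 in somatodendritic replicate 6, worth 8.94 effective reads, with the others between 51.4 and 63.4. Zmat3 stood at 20.3 in axonal replicate 3, worth 1.51 effective reads, with the others between 4.32 and 7.89.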

How the results depend on the processing

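None of the 10 genes was called under any alternative run (lowest adjusted p 0.298, for Perp). Of 248 fold changes of the 10 genes under alternatives, 241 kept their direction. The reversed ones were Mdm2 (0.064), Cdkn1a (-0.13) and Bbc3 (-0.50) within replicates 1 and 2, Gadd45a (0.15) within replicates 3 to 6, Cdkn1a (-0.052) with FPKM as deposited, Mdm4 (-0.16) without somatodendritic replicate 6 and Bbc3 (-0.17) without somatodendritic replicate 4. With each library left out, Mdm4 ran from -0.16 to 0.85 and Bbc3 from -0.17 to 0.74, Cdkn1a from 0.071 to 0.37 and Gadd45a from -1.08 to -0.13. The cause was not tested. Trp53, Ccng1, Perp, Bax and Zmat3 kept fold changes above 0 in every alternative that gave a value, with lowest values of 0.51, 0.64, 0.83, 0.49 and 0.33. With a mean FPKM of at least 5 required, Perp and Gadd45a were not tested. The count of called genes over all genes, 1 as reported, was 3 with a pseudocount of 0.1 and with plain moderation, 5 with array weights, 6 with replicate set (1 and 2, or 3 to 6) as a term, 7 within replicates 3 to 6, 0 within replicates 1 and 2 (limma, 833 at an unadjusted p below 0.05), 0 by exact permutation (1218 at an unadjusted p below 0.05) and 1 to 11 with each library left out (11 without axonal replicate 6, 3 on omitting axonal replicate 1 and 2 on omitting axonal replicate 2 or 4). With the replicate number as a block it was 5. The labels state no pairing by replicate number, and the correlation of same-numbered deviations was -0.00045 to 0.24. Libraries numbered 1, and those numbered 5, were each other's closest across compartments, and the other numbers were not, so pairing was not settled. Under the block Trp53 had an unadjusted limma p of 0.0435 and Ccng1 one of 0.0745. For Ccng1 it was also above 0.05 with FPKM as deposited (0.114), rescaled to a common protein-coding sum (0.0719), by quantile normalization (0.072) and with array weights (0.0932), and up to 0.0953 with each library left out. The median of all genes, 0.18, shifted to 0.001 with FPKM as deposited and to 0.04 without somatodendritic replicate 4. Wide bounds limit the set: outside Cdkn1a and Ccng1, most values were worth fewer than 5 effective reads. The part of depth, and of the several transcripts of a gene, in that width was not tested.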
